A study of Mus musculus with 18 samples.

Results

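The 10 genes described here encode the lysosomal proteases and the protease inhibitor that dendritic cells use to process antigen: the cysteine cathepsins S, L, B, H, C and Z (Ctss, Ctsl, Ctsb, Ctsh, Ctsc and Ctsz), the aspartic cathepsins D and E (Ctsd and Ctse), the asparaginyl endopeptidase legumain (Lgmn) and cystatin C (Cst3). They were taken as a list of symbols, and all 10 were found in each raw count table, out of 17903 genes that the raw tables list between them. The RNA-seq data cover cDC1 and cDC2, which are conventional dendritic cells, and the plasmacytoid kind (pDC), each sorted from the spleens of mice. The sort gates, as the labels give them, asked for XCR1 and no CD11b in cDC1, for CD11b and no XCR1 in cDC2, and for BST2 with intermediate CD11c in pDC, with CD64-positive cells left out of all 3. The study asked how the histone deacetylase HDAC1 shapes dendritic cells.

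Every mouse had been given polyI:C, an RNA mimic that induces interferon, 2 weeks before the sort. The labels name 2 genotypes per subset, HDAC1-Mx1Cre and HDAC1 floxed, with 3 samples each, which makes 18 samples. The Mx1 promoter responds to interferon in many cell types, so the recombinase is not restricted to dendritic cells. Each subset has a raw table with 6 columns, but the column names carry no genotype. The genotypes were therefore not compared, and the spread among the 6 columns of a subset includes any difference between them. Nothing in the labels says whether the samples came from separate animals, so p-values measure the spread between these columns only.

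Cathepsins are made as inactive precursors, sorted to endosomes and lysosomes and activated at acid pH. In cells that present antigen on MHC class II they cut proteins into peptides and trim the invariant chain, the chaperone of class II molecules. Cathepsin S is the main protease for the late steps of invariant chain cleavage in dendritic cells and B cells, whereas cathepsin L has that role in cortical thymic epithelium, and cystatin C is a secreted inhibitor of cysteine cathepsins.

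Between the subsets the differences were large for a few of these genes. pDC held 145-fold more Ctsl than cDC1 and 91.5-fold more than cDC2. cDC1 held 16.7-fold more Cst3 than cDC2 and 19.95-fold more than pDC. Ctsb, Ctsd, Ctse and Ctsh also had their highest level in pDC, and Ctss, Ctsc and Lgmn in cDC2. These folds come from an edgeR quasi-likelihood fit with TMM scaling over the 13539 genes tested, with 6 columns per subset, and all of the named differences passed an adjusted p of 0.05.

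The start regions of 5 of the genes are shown because these genes carry the main patterns: Cst3 and Ctsl differ most between subsets, Ctss and Ctsc share their order of subsets, and Ctsd is the aspartic protease with the widest range. Windows from RefSeq on GRCm38.p6, with 250 bases before and 50 bases after the annotated start, were found for 7 of the 10 members. Ctsb, Ctse and Ctsh had no window and were not searched for motifs. Each is given 5′ to 3′ on the gene's own strand, with the letters of searched motifs in capitals.
Cst3, chr2:148875463-148875762, minus strand: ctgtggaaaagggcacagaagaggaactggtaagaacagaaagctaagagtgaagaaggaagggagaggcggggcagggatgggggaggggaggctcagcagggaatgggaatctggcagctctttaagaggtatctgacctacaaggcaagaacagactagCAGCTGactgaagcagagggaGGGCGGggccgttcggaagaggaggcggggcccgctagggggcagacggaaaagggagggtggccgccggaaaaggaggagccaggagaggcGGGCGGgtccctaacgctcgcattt
Ctsl, chr13:64370471-64370770, minus strand: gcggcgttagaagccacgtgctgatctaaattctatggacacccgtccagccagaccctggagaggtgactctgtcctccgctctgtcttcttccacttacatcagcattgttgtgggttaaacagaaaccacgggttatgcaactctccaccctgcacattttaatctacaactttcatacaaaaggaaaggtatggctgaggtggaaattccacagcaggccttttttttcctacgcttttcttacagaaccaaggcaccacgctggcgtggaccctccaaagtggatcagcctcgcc
Ctss, chr3:95526536-95526835, plus strand: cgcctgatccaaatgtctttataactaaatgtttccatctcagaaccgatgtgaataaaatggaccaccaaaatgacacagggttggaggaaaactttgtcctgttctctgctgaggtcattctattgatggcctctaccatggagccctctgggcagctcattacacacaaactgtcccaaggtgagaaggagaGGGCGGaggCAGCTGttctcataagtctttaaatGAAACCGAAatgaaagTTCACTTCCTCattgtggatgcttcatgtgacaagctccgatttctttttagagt
Ctsc, chr7:88277835-88278134, plus strand: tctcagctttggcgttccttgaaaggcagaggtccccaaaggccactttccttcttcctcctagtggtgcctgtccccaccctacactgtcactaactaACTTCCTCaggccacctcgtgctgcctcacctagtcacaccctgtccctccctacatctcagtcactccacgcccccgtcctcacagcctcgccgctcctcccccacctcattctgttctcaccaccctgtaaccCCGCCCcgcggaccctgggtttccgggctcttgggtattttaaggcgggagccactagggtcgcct
Ctsd, chr7:142387778-142388077, minus strand: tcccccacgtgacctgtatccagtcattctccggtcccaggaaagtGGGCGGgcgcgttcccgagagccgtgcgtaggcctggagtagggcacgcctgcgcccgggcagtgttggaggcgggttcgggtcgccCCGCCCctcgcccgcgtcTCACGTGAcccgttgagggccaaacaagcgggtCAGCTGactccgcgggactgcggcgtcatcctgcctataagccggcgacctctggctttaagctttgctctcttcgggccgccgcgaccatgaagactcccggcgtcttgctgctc
In Cst3, Ctsd, Ctsl and Lgmn the RefSeq starts lie inside the gene as GENCODE M21 draws it, downstream of its 5′ end. Motifs were searched on both strands, and a match is a run of letters, not a known site.

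The string TCACGTGA is the core of the CLEAR element to which TFEB binds in lysosomal genes. Among the members with a window it was found in Ctsd alone, 99 bases before the start. It was present in 0.974% of 32851 windows. GAGGAAGT, a PU.1 string, lay on the opposite strand in Ctss and in Ctsc, and 3.20% of all windows held it. The Ctss window also held GAAANNGAA, a core of the interferon-response element found in 8.56% of windows, and GGAANNGAA, the core of the composite element bound by PU.1 with an IRF factor, found in 8.24%. This composite match overlaps the PU.1 string. CAGCTG (16.3% of windows) was found in Cst3, Ctsd, Ctss and Lgmn. GGGCGG, the GC box (35.7%), was found in Cst3, Ctsc, Ctsd, Ctss, Ctsz and Lgmn. CCAAT (37.4%) was found in Ctsz and Lgmn, and TGANTCA, the AP-1 string (7.81%), in no member with a window. Lgmn has windows at different starts. Its CAGCTG lay in the window at chr12:102439043-102439342, and its GC box and CCAAT strings in that at chr12:102439679-102439978. None of the 8 strings was found in the Ctsl window.

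The columns held 23530860 to 37105002 counts. Subset labels were checked against 10 markers each. All 10 pDC markers were higher in every pDC column than in any other column, as were 8 of the 10 cDC1 markers in cDC1 (Irf8 and Tlr3 were not) and 5 of the 10 cDC2 markers in cDC2. The other 5 cDC2 markers were Irf4, Cd4, Clec10a, Cd209a and Mgl2, and their levels in pDC overlapped or exceeded those in cDC2. Levels are given as CPM, the count of a gene scaled to the total of its column. The summed CPM of 10 macrophage markers were 102 to 214 in cDC1, 552 to 1099 in cDC2 and 13.1 to 27.8 in pDC, with no marker at 0 in any column. In cDC2 Csf1r and Adgre1 had the highest medians of this list, 234 and 199 CPM, and Mertk the lowest, 2.20 CPM. The monocyte and neutrophil list summed to 389 to 1261 CPM in cDC1, 107 to 330 in cDC2 and 7218 to 8103 in pDC, where Ly6c2 alone gave 6706 to 7665. Fcgr1, which encodes the CD64 used to gate cells out, was at 0 in at least 1 column of cDC1 and at least 1 of pDC. Its highest column had 1.08 CPM in cDC1 and 0.315 CPM in pDC. In cDC2 every column held it, at 0.844 to 5.32 CPM. Plasma cell markers summed to 204 to 623 CPM in cDC1, 135.6 to 168.4 in cDC2 and 779 to 966 in pDC, led in pDC by Xbp1. Erythroid genes summed to 1678 to 6502 CPM, B cell genes to 89.1 to 219, T cell genes to 4.54 to 22.1, NK cell genes to 0.355 to 16.4 and basophil and mast cell genes to at most 5.19 over all columns.

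The first gene, Ctss, lies on chromosome 3 (95526786 to 95556403, plus strand, GRCm38). Over the 6 columns of each subset, its lowest, median and highest values were 1214, 1273 and 1359 CPM in cDC1, 2143, 2590 and 3044 CPM in cDC2, and 1978, 2074 and 2128 CPM in pDC. No pair of subsets overlapped, though the lowest cDC2 column stood only just above the highest pDC column. Ctss fell in cDC1 against cDC2 by 1.01 on the log2 scale (SE 0.10, adjusted p = 8.41e-08, edgeR) and against pDC by 0.48 (SE 0.10, adjusted p = 0.00034, edgeR). It rose in cDC2 against pDC by 0.52 (SE 0.10, adjusted p = 0.000155, edgeR). Such values are from bulk RNA, in which fewer cells of a type and less RNA per cell cannot be told apart.

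Ctsl (chromosome 13, 64359337 to 64370890, minus strand) had the widest range. Across columns the lowest, median and highest values were 11.4, 16.1 and 20.9 CPM in cDC1, 18.3, 25.02 and 34.3 CPM in cDC2, and 2629, 2721 and 2815 CPM in pDC. The pDC columns stood far above all others, while the cDC1 and cDC2 columns overlapped. The log2 difference was -7.18 in cDC1 against pDC (SE 0.24, adjusted p = 9.78e-16, edgeR) and -6.52 in cDC2 against pDC (SE 0.23, adjusted p = 2.35e-15, edgeR). Ctsl also fell in cDC1 against cDC2, by 0.66 (SE 0.19, adjusted p = 0.00667, edgeR). Counted from the most negative difference among the 13539 genes tested, Ctsl ranked 28 in cDC1 against pDC and 62 in cDC2 against pDC.

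Ctsb (chromosome 14, 63122462 to 63145923, plus strand) encodes a cathepsin that both cuts within chains and trims their C-terminal ends. The lowest, median and highest columns had 655, 716 and 989 CPM in cDC1, 599, 689 and 800 CPM in cDC2, and 5568, 6121 and 6413 CPM in pDC. The lowest pDC column was 5.63-fold above the highest cDC1 column and 6.96-fold above the highest cDC2 column. The log2 difference was -2.79 in cDC1 against pDC (SE 0.12, adjusted p = 3.31e-14, edgeR) and -2.91 in cDC2 against pDC (SE 0.12, adjusted p = 1.61e-14, edgeR). cDC1 and cDC2 overlapped, and their difference of 0.13 did not pass the test, with a 95% interval from -0.10 to 0.36 (adjusted p = 0.365, edgeR).

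Ctsh (chromosome 9, 90054152 to 90076089, plus strand), an aminopeptidase, was graded across the subsets. Its columns ran, as lowest, median and highest, at 579, 637 and 708 CPM in cDC1, 1332, 1377 and 1425 CPM in cDC2, and 2902, 3071 and 3159 CPM in pDC. No pair of subsets overlapped. Ctsh fell in cDC1 by 1.08 against cDC2 and by 2.02 against pDC, and in cDC2 by 0.94 against pDC, all on the log2 scale with an SE of 0.07. The largest of its 3 adjusted p-values from edgeR was 9.91e-11.

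Ctsc (chromosome 7, 88278085 to 88310888, plus strand) encodes the dipeptidyl peptidase that activates granule serine proteases. Given as lowest, median and highest, its levels were 147, 201 and 255 CPM in cDC1, 407, 617 and 699 CPM in cDC2, and 344, 390 and 444 CPM in pDC. The cDC1 columns lay below all others, while the lowest cDC2 column fell among the pDC columns. Ctsc fell in cDC1 by 1.58 against cDC2 (SE 0.14, adjusted p = 6.56e-09, edgeR) and by 0.79 against pDC (SE 0.13, adjusted p = 3.08e-05, edgeR). It rose by 0.79 in cDC2 against pDC (SE 0.13, adjusted p = 2.87e-05, edgeR).

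Ctsz (chromosome 2, 174427493 to 174439039, minus strand), a carboxypeptidase also called cathepsin X, had the smallest range of subset means among the members. In each subset the lowest, median and highest columns held 660, 725 and 809 CPM in cDC1, 1135, 1203 and 1305 CPM in cDC2, and 1141, 1251 and 1371 CPM in pDC. cDC1 lay below both other subsets, which overlapped. Ctsz fell in cDC1 by 0.72 against cDC2 (adjusted p = 3.23e-08, edgeR) and by 0.56 against pDC (adjusted p = 4.63e-07, edgeR), with an SE of 0.07 for each. In cDC2 against pDC the log2 difference of 0.16 missed the threshold (95% interval 0.01 to 0.30, adjusted p = 0.0518, edgeR). Without the TMM factors its sign turned, to -0.051 (adjusted p = 0.537), and over all alternatives the adjusted p ran from 0.0157 to 0.537.

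Ctsd (chromosome 7, 142375911 to 142388038, minus strand) encodes the main aspartic protease of lysosomes. By lowest, median and highest column, the gene had 36.4, 43.2 and 65.8 CPM in cDC1, 86.7, 115 and 146 CPM in cDC2, and 270, 302 and 343 CPM in pDC. The subsets formed 3 separate steps with no overlap. Ctsd fell in cDC1 by 1.28 against cDC2 (SE 0.14, adjusted p = 1.96e-07, edgeR) and by 2.46 against pDC (SE 0.15, adjusted p = 5.79e-12, edgeR). In cDC2 against pDC it fell by 1.18 (SE 0.14, adjusted p = 2.59e-07, edgeR).

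Ctse (chromosome 1, 131638306 to 131675505, plus strand), an aspartic protease of endosomes, had few counts and the widest relative spread. Its lowest, median and highest values were 8.87, 21.4 and 26.3 CPM in cDC1, 3.87, 6.66 and 13.0 CPM in cDC2, and 34.5, 38.8 and 49.8 CPM in pDC. The smallest count behind these values was 101 in cDC2. The pDC columns stood above all others, and cDC1 and cDC2 overlapped through 2 low cDC1 columns. Ctse was the only protease of the 9 that rose in cDC1 against cDC2, by 1.35 (SE 0.27, adjusted p = 0.000346, edgeR). It fell against pDC by 0.88 in cDC1 (SE 0.26, adjusted p = 0.00603, edgeR) and by 2.23 in cDC2 (SE 0.28, adjusted p = 5.49e-07, edgeR).

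Lgmn (chromosome 12, 102394084 to 102439813, minus strand) encodes legumain, which cuts after asparagine and takes part in the maturation of other cathepsins. Levels, as lowest, median and highest, were 40.0, 52.7 and 56.5 CPM in cDC1, 78.5, 97.7 and 102 CPM in cDC2, and 52.0, 60.9 and 70.6 CPM in pDC. cDC2 lay above both other subsets, which overlapped. Lgmn fell in cDC1 against cDC2 by 0.85 (SE 0.09, adjusted p = 8.81e-08, edgeR) and rose in cDC2 against pDC by 0.85 (SE 0.09, adjusted p = 4.13e-08, edgeR). In cDC1 against pDC the difference was -0.008 with a 95% interval from -0.19 to 0.18 (adjusted p = 0.94, edgeR), and without the TMM factors it was -0.23 (adjusted p = 0.0434), the lowest of its alternatives, which reached 0.992. Ctss, Ctsc and Lgmn had their highest level in cDC2, the subset with the highest macrophage marker sum. Whether macrophages were among the sorted cells, and any part of them in these 3 results, was not tested.

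Cst3 (chromosome 2, 148871722 to 148875692, minus strand), the inhibitor, went the other way from most of the proteases. As lowest, median and highest, the columns had 20164, 25983 and 30339 CPM in cDC1, 1451, 1516 and 1931 CPM in cDC2, and 1359, 1424 and 1891 CPM in pDC. In cDC1 it made up 2.59% of all counts on average and ranked 4 by CPM among the 17017 genes listed. The lowest cDC1 column was 10.4-fold above the highest cDC2 column and 10.7-fold above the highest pDC column. Cst3 rose in cDC1 by 4.07 against cDC2 (SE 0.15, adjusted p = 2.7e-14, edgeR) and by 4.32 against pDC (SE 0.15, adjusted p = 2.56e-15, edgeR). In cDC2 against pDC the columns overlapped and the difference of 0.25 missed the threshold (95% interval -0.03 to 0.54, adjusted p = 0.11, edgeR). Without column 2 of pDC it was 0.33 (adjusted p = 0.0374), the lowest of its alternatives, which reached 0.676.

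**Figure D1:**
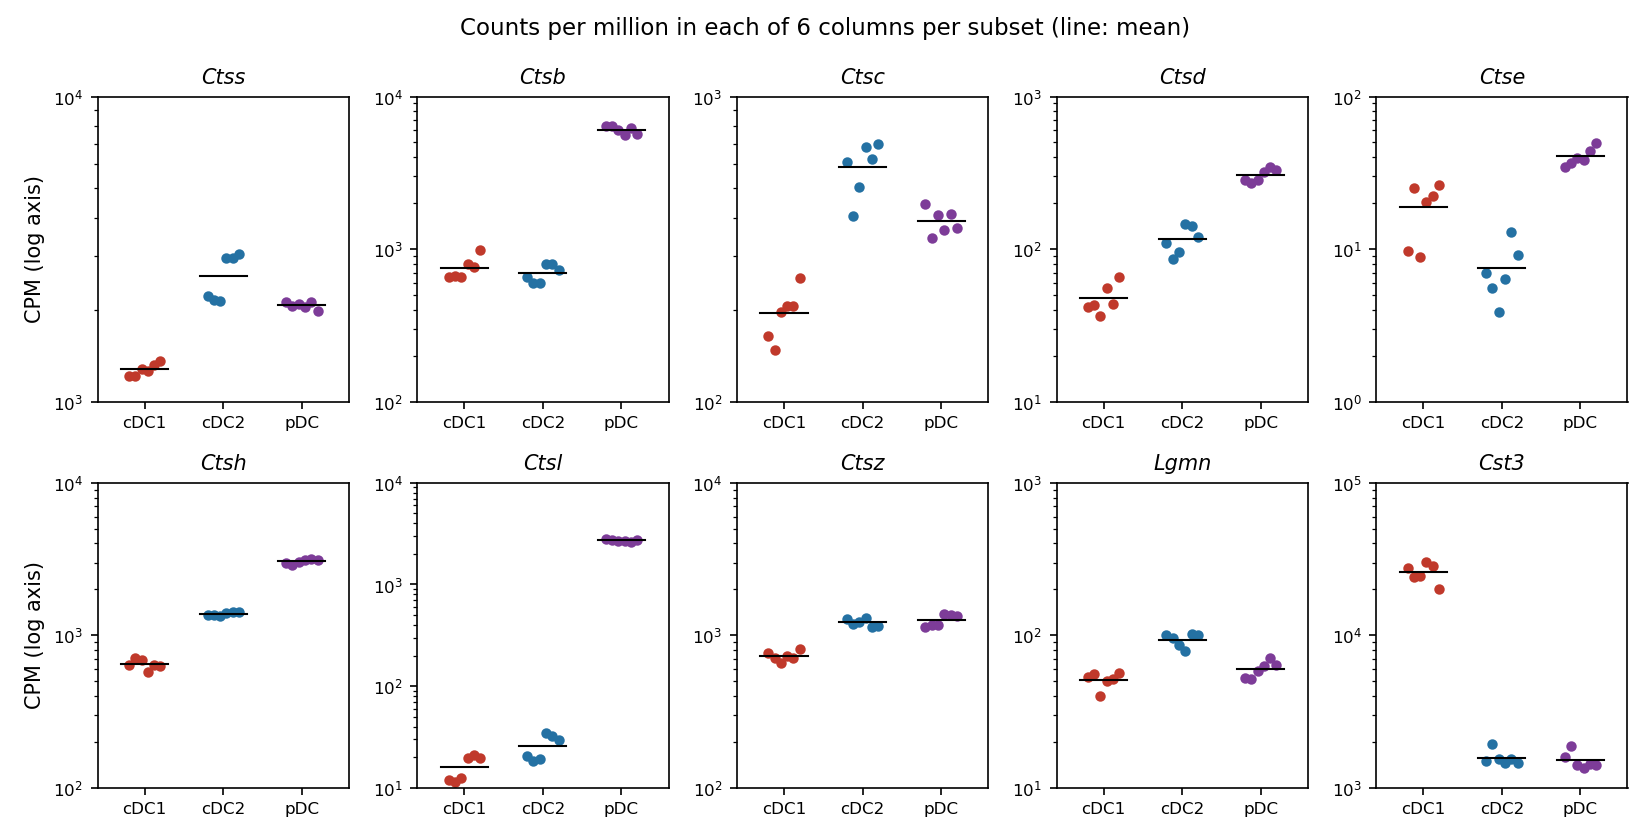
CPM of each gene (vertical log axis, a scale of its own per panel) in the 6 columns of cDC1, cDC2 and pDC, with a line at the mean. Ctsl lies between 2629 and 2815 CPM in pDC and below 35 CPM in every other column, and Cst3 lies at 20164 CPM or more in every cDC1 column.

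Counted together, 2 members rose and 7 fell in cDC1 against cDC2, and Ctsb did not pass. Of all 13539 genes tested, 24.8% rose and 25.7% fell in that comparison. In cDC1 against pDC 1 member rose and 8 fell, against 34.3% and 32.1% of all genes, and Lgmn did not pass. In cDC2 against pDC 3 rose and 5 fell, against 32.2% and 32.0%, and Ctsz and Cst3 did not pass. All 10 members passed the filter on low counts.

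A log2 difference of at least 1 was reached as well by 6 members in cDC1 against cDC2 (17.7% of all genes), by 5 in cDC1 against pDC (30.3%) and by 4 in cDC2 against pDC (30.0%). The count of 6 includes Ctss, whose -1.01 was -0.99 with limma-voom and between -1.08 and -0.96 when each column was left out, and without the TMM factors Ctsh, at -1.14, would join the 4. The median log2 difference of the 10 members was -0.79 in cDC1 against cDC2, -0.83 in cDC1 against pDC and -0.39 in cDC2 against pDC, with medians over all genes of 0.01, 0.04 and 0.01 in that order. The 3 comparisons share columns, so their calls are not independent. Without the TMM factors the median over all genes moved by -0.21 in both comparisons with pDC, and the share of calls that were higher was 38.6% in place of 51.7% for cDC1 against pDC and 37.4% in place of 50.1% for cDC2 against pDC. The TMM-scaled differences from pDC are given relative to that shift.

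**Figure D2:**
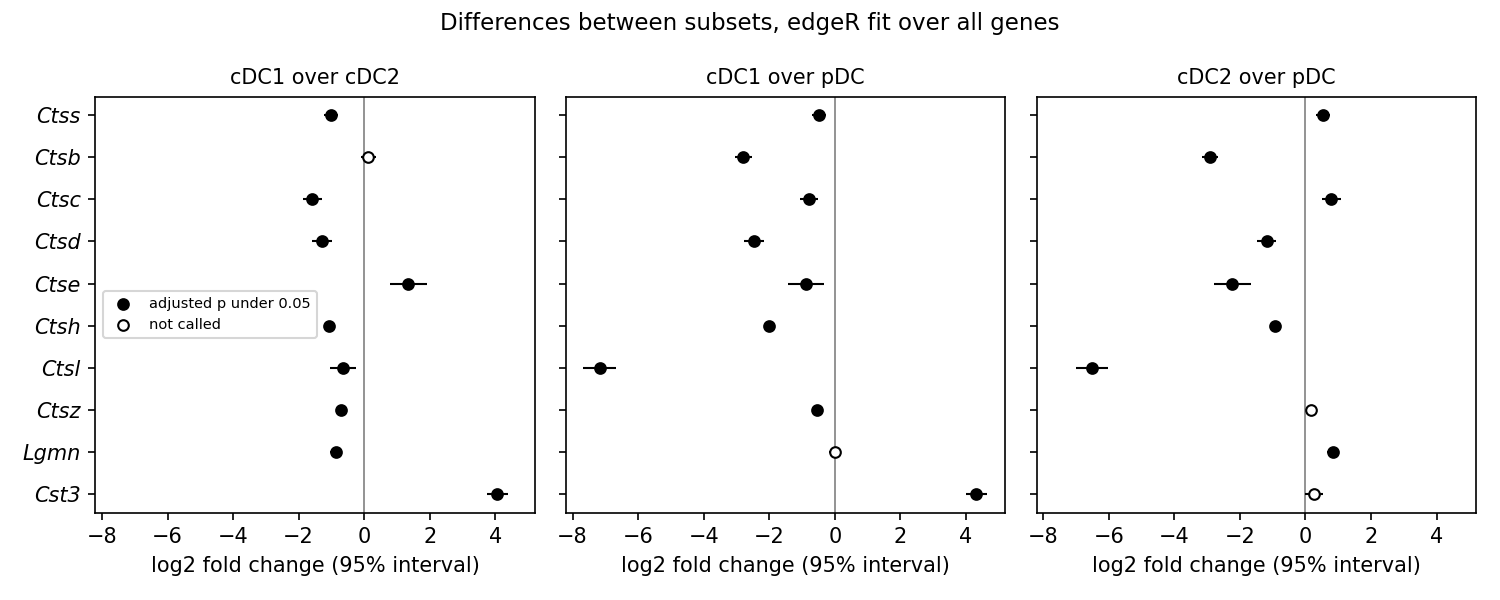
Log2 fold changes of the 10 genes in the 3 comparisons with their 95% intervals; filled points passed an adjusted p of 0.05 and open points did not. Ctsl in both comparisons with pDC and Cst3 in both comparisons of cDC1 lie farthest from 0.

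The summed proteases followed the same order as Ctsd and Ctsh. The 9 proteases together reached 3742 ± 248 CPM in cDC1, 6704 ± 691 CPM in cDC2 and 15942 ± 337 CPM in pDC (SD, n = 6 each). With Cst3 added, the 10 genes held 2.96% ± 0.35 of all counts in cDC1, 0.83% ± 0.06 in cDC2 and 1.75% ± 0.04 in pDC. The order of the subsets was thus not the same with the inhibitor as without it. No test was run on these sums.

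To compare genes with each other, CPM was divided by transcript length in kb, with the longest annotated transcript as the length. On this scale Ctss led the proteases in every subset, at 941 ± 42 CPM per kb in cDC1, 1905 ± 331 in cDC2 and 1528 ± 41 in pDC (SD, n = 6 each). Its share of the 9 proteases was 47.9% in cDC1, 51.3% in cDC2 and 27.6% in pDC. Ctsz came second in cDC1 with 25.9% and in cDC2 with 23.1%, whereas in pDC Ctsb was second with 22.996% and Ctsh next with 20.1%. These places depend on the length used. With the shortest principal transcript Ctsh (854 CPM per kb) stood above Ctsz (842) in cDC2, and in pDC Ctsb (1275) came after Ctsh (1888), Ctss (1528) and Ctsl (1380). With the union of exons Ctsz (873) stood above Ctsh (679) in pDC.

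The share of Ctsl was 0.132% in cDC1, 0.111% in cDC2 and 7.96% in pDC. This value depends on the transcript: the longest has 6168 bases and the shortest principal transcript 1971 bases, and with the shorter the Ctsl share was 0.376% in cDC1, 0.313% in cDC2 and 18.9% in pDC. Cst3 had 30065 ± 4266 CPM per kb in cDC1, 1826 ± 210 in cDC2 and 1763 ± 231 in pDC. In cDC2 the level of Ctss per kb (1905) and that of Cst3 (1826) differed by less than their spread. This too depends on the length. With the union of exons Ctss stood above Cst3, at 1900 against 1241 in cDC2 and 1525 against 1198 in pDC. Ctse was the lowest gene in cDC2 and pDC at 3.51 and 19.0 CPM per kb, and Ctsl the lowest in cDC1 at 2.604.

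**Figure D3:**
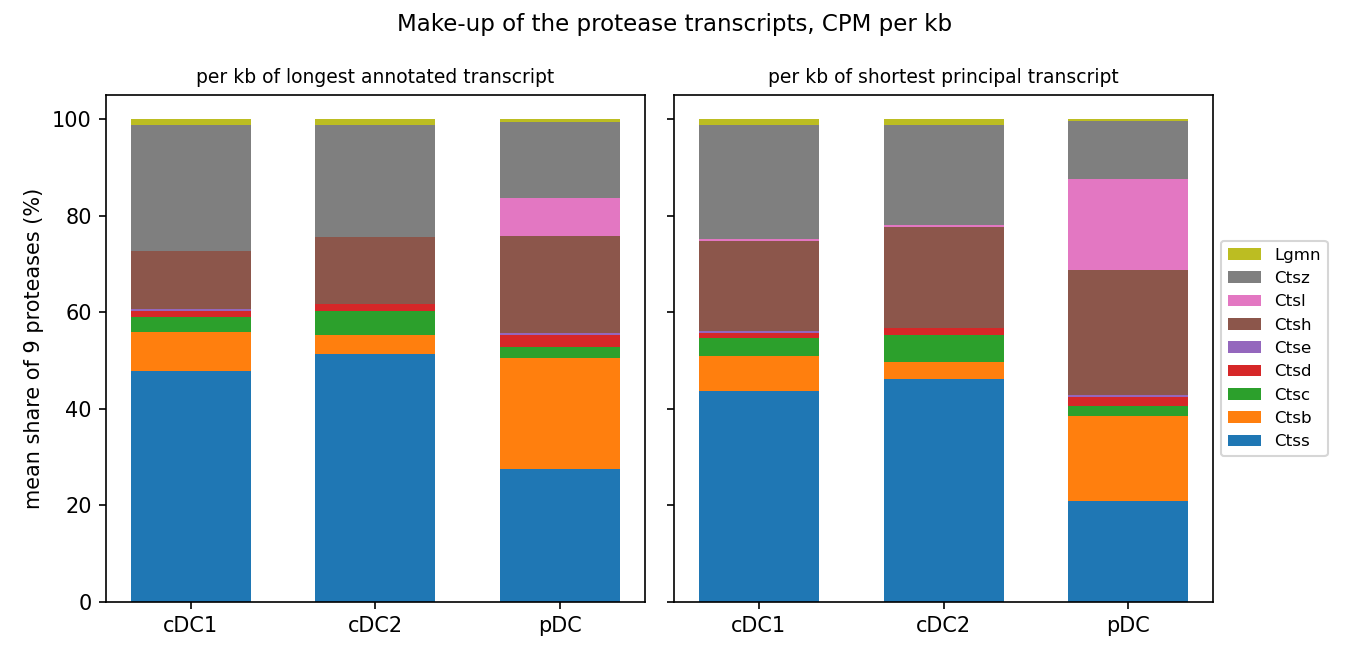
Mean share of each of the 9 proteases in their sum, in CPM per kb (vertical axis in percent), with the longest annotated transcript at left and the shortest principal transcript at right. Ctsb, Ctsh and Ctsl fill more of the bar in pDC than in cDC1 or cDC2, and Ctsl takes 7.96% or 18.9% of it in pDC.

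A ratio within a column does not depend on library size or scaling. The ratio of Ctsl to Ctss per kb had a geometric mean of 0.00268 in cDC1 (range 0.00206 to 0.00349), 0.00214 in cDC2 (0.00187 to 0.00255) and 0.288 in pDC (0.272 to 0.307). The difference in log2 ratio was -6.75 in cDC1 against pDC and -7.07 in cDC2 against pDC (exact two-sided permutation test over all splits of 6 against 6, p = 0.00216 for each, adjusted p = 0.0026 over 6 tests). That p is the smallest the test can give. The ratio itself moves with the length: with the shortest principal transcript its geometric mean was 0.00838 in cDC1, 0.00671 in cDC2 and 0.903 in pDC, while the differences between subsets do not depend on it. The difference of 0.32 in cDC1 against cDC2 did not pass (exact permutation p = 0.0931, adjusted p = 0.0931).

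The ratio of Cst3 to the sum of the 6 cysteine cathepsins, as transcripts, leaves out Lgmn and the aspartic cathepsins. Its geometric mean was 15.6 in cDC1 (range 11.2 to 18.7), 0.509 in cDC2 (0.426 to 0.710) and 0.327 in pDC (0.297 to 0.416). The 3 ranges did not overlap. On the log2 scale cDC1 was higher by 4.94 than cDC2 and by 5.58 than pDC, and cDC2 was higher by 0.64 than pDC. Each difference had an exact permutation p of 0.00216 and an adjusted p of 0.0026. Unlike the differences in the Ctsl to Ctss ratio, these move with the length. With the shortest principal transcript they were 4.96, 5.85 and 0.89 in that order. The geometric means were then 14.2 in cDC1, 0.457 in cDC2 and 0.247 in pDC. Cst3 itself did not pass the test in cDC2 against pDC, while of the 6 summed genes Ctsb, Ctsh and Ctsl fell there, Ctss and Ctsc rose and Ctsz did not pass.

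**Figure D4:**
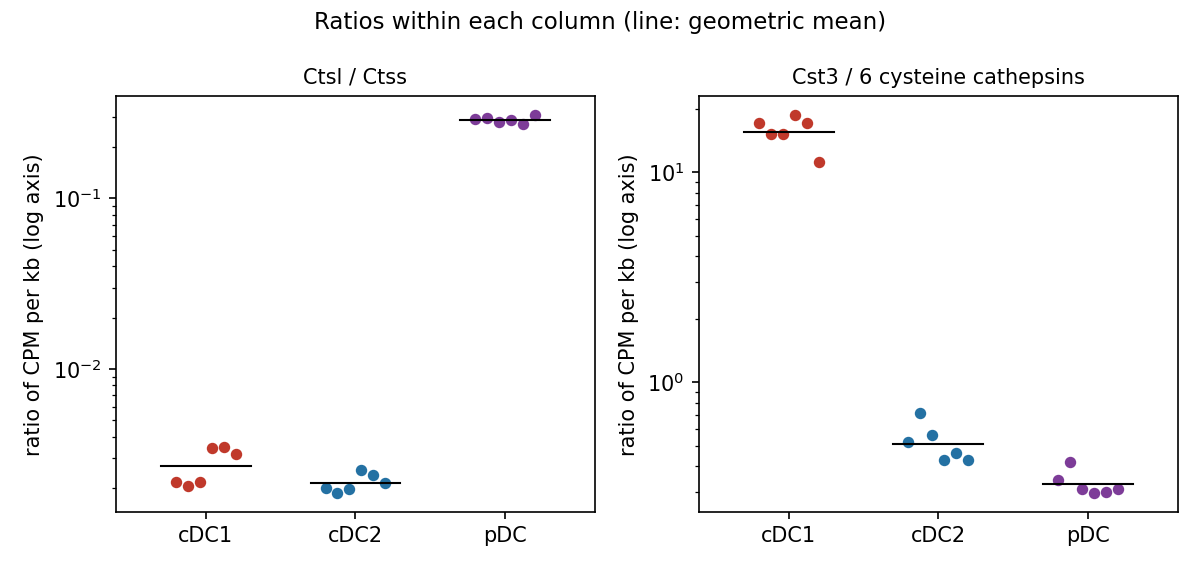
Ratio of Ctsl to Ctss and of Cst3 to the summed cysteine cathepsins in each column (vertical log axes, CPM per kb), with a line at the geometric mean. The length is that of the longest annotated transcript. The left panel separates pDC, at 0.272 to 0.307 (0.851 to 0.959 with the shortest principal transcript), from both conventional subsets. The right panel separates cDC1, at 11.2 to 18.7 (10.3 to 17.1 with the shortest principal transcript), from the rest.

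Within a subset the genes differed in their spread. The coefficient of variation of CPM over 6 columns was lowest for Ctsl in pDC, at 2.599%, and highest for Ctse in cDC2, at 42.8%. Ctsl itself had 27.9% in cDC1 and 27.9% in cDC2. Ctss had 4.47% in cDC1, 17.4% in cDC2 and 2.71% in pDC, and Ctsh stayed between 2.82% and 7.06% in all 3 subsets. The spread depends on the scaling: in the authors' normalized counts Ctss had 8.17% in cDC1, 19.2% in cDC2 and 5.95% in pDC, and Ctsl had 6.06% in pDC, where Ctsh was lowest at 2.22%.

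For the 3 members with the widest range of subset means, the genes with the most similar log2 CPM over the 18 columns were listed as a description. The columns of a subset share their table and their sort, and many genes follow the subsets. Rell1, Dctn6 and Nceh1 were closest to Ctsl (Pearson r 0.996, 0.996 and 0.994), and 582 genes had an r above 0.95 with it. Rell1 averaged 13.1 CPM in cDC1, 18.7 in cDC2 and 279 in pDC. Trabd2b, Gpr141b and Cpne8 were closest to Cst3 (r 0.992, 0.992 and 0.990), with 102 genes above 0.95, and Gpr141b averaged 611 CPM in cDC1, 0.693 in cDC2 and 0.390 in pDC. Tom1, Fyn and Cxxc5 were closest to Ctsb (r 0.995 for each), with 595 genes above 0.95. Fyn, a Src-family kinase, averaged 70.7 CPM in cDC1, 55.2 in cDC2 and 700 in pDC.

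The counts in 6 lists of related genes stand beside the shares of all genes tested, which were 24.8% higher and 25.7% lower in cDC1 against cDC2, 34.3% and 32.1% in cDC1 against pDC, and 32.2% and 32.0% in cDC2 against pDC. Among 10 tested genes of other cathepsins and lysosomal proteases, 4 rose and 5 fell in cDC1 against cDC2, 2 rose and 8 fell in cDC1 against pDC, and 1 rose and 7 fell in cDC2 against pDC. Their median log2 differences were -0.36, -1.30 and -0.75 in that order. Ctsa, which encodes the protective protein cathepsin A, averaged 135 CPM in cDC1, 588 in cDC2 and 844 in pDC, and fell in cDC1 by 2.13 against cDC2 (adjusted p = 3.43e-13, edgeR) and by 2.44 against pDC (adjusted p = 1.23e-14, edgeR). Cpq, a lysosomal carboxypeptidase, rose in cDC1 by 2.49 against cDC2 and by 1.75 against pDC. Napsa, the aspartic protease napsin A, averaged 485 CPM in cDC1, 1049 in cDC2 and 640 in pDC, and rose in cDC2 against pDC by 0.91 (adjusted p = 7.71e-09, edgeR). Ctsw, a cathepsin of cytotoxic lymphocytes, averaged 1.41 CPM in cDC2 and 24.7 CPM in pDC and fell in cDC2, with a log2 difference of -3.93 (adjusted p = 6.12e-11, edgeR).

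Of 11 tested cystatins and protease inhibitors other than Cst3, 4 rose and 3 fell in cDC1 against cDC2 (median -0.07). In cDC1 against pDC 7 rose and 2 fell (median 1.21), and in cDC2 against pDC 7 rose and 1 fell (median 1.28). Serpinb9, which inhibits granzyme B, averaged 526 CPM in cDC1, 81.4 in cDC2 and 8.97 in pDC. It rose in cDC1 by 2.72 against cDC2 and by 6.10 against pDC (adjusted p = 4.89e-09 and 7.32e-14, edgeR). Cst7, which encodes cystatin F, an intracellular inhibitor of cathepsin C, averaged 3.53 CPM in cDC1 and 26.4 in cDC2 and fell in cDC1 by 2.91 (adjusted p = 1.14e-08, edgeR). Slpi, a secreted inhibitor of serine proteases, fell by 4.63 in cDC1 against pDC and by 4.10 in cDC2 against pDC.

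The list for sorting to lysosomes and for lysosome biogenesis had 28 tested genes. In cDC1 against cDC2 9 rose and 13 fell (median -0.15), in cDC1 against pDC 11 rose and 14 fell (median -0.25), and in cDC2 against pDC 9 rose and 9 fell (median 0.03). Igf2r, the cation-independent mannose 6-phosphate receptor that carries new lysosomal enzymes, averaged 8.54 CPM in cDC1, 0.146 in cDC2 and 0.195 in pDC. It rose in cDC1 by 5.78 against cDC2 and by 5.59 against pDC (adjusted p = 1.05e-09 and 3.54e-10, edgeR). An antisense gene lies within it, and the sources used here do not say whether counting used strand. Tfeb, the transcription factor of lysosome biogenesis, averaged 25.1 CPM in cDC1 and 86.5 in cDC2 and fell in cDC1 by 1.79 (adjusted p = 9.55e-12, edgeR). Npc1, the cholesterol transporter of lysosomes, fell by 2.86 in cDC1 and by 1.68 in cDC2 against pDC, and Cd63, a tetraspanin of late endosomes, rose by 5.91 and by 5.94 in the same order.

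Of 21 tested genes of the proton pump (V-ATPase) and of acidification, 6 rose and 4 fell in cDC1 against cDC2 (median 0.05), close to the shares of all genes. In cDC1 against pDC 5 rose and 9 fell (median -0.09), and in cDC2 against pDC 4 rose and 10 fell (median -0.13). Slc11a1, the metal transporter NRAMP1 of phagosomes, averaged 111 CPM in cDC1, 21.7 in cDC2 and 0.435 in pDC, and rose in cDC1 by 2.36 against cDC2 and by 8.19 against pDC. Atp6v0a2, a membrane subunit of the pump, rose in cDC1 by 1.60 against cDC2 and by 1.90 against pDC. Tcirg1, another such subunit, fell by 0.44 and by 1.24 in the same comparisons.

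Other lysosomal hydrolases had 30 tested genes, of which 12 rose and 7 fell in cDC1 against cDC2 (median 0.16). In cDC1 against pDC 16 rose and 10 fell (median 0.51), and in cDC2 against pDC 11 rose and 14 fell (median -0.17). Ppt1, which removes fatty acids from proteins, averaged 7081 ± 846 CPM in cDC1, 237 ± 30 CPM in cDC2 and 273 ± 24 CPM in pDC (SD, n = 6 each). It rose in cDC1 by 4.91 against each of the others (adjusted p = 3.42e-17 against cDC2 and 5.99e-18 against pDC, edgeR). Gusb, beta-glucuronidase, rose by 3.12 in cDC1 against cDC2, and Acp5, an acid phosphatase, fell by 2.99. Psap, the precursor of the saposins, averaged 1800 CPM in cDC2 and 6114 in pDC and fell in cDC2 by 1.56 (adjusted p = 1.8e-07, edgeR).

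The last list joined class II partners with genes that control oxidation in the endosome, 21 of them tested. In cDC1 against cDC2 5 rose and 8 fell (median -0.23), in cDC1 against pDC 15 rose and 6 fell (median 1.09), and in cDC2 against pDC 16 rose and 4 fell (median 1.28). Cybb, the catalytic subunit of the phagocyte oxidase, averaged 56.1 CPM in cDC1, 349 in cDC2 and 1224 in pDC, and fell in cDC1, with log2 differences of -2.64 against cDC2 and -4.25 against pDC (adjusted p = 9.04e-10 and 4.46e-13, edgeR). Hvcn1, a voltage-gated proton channel, fell by 4.45 in cDC1 and by 2.36 in cDC2 against pDC. H2-Eb1, a class II beta chain, averaged 13615 CPM in cDC1, 15748 in cDC2 and 2663 in pDC, and rose by 2.57 in cDC1 and by 2.76 in cDC2 against pDC. H2-Ob, which encodes a chain of the class II modulator H2-O, rose by 3.86 in cDC1 and by 3.797 in cDC2 against pDC.

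**Figure D5:**
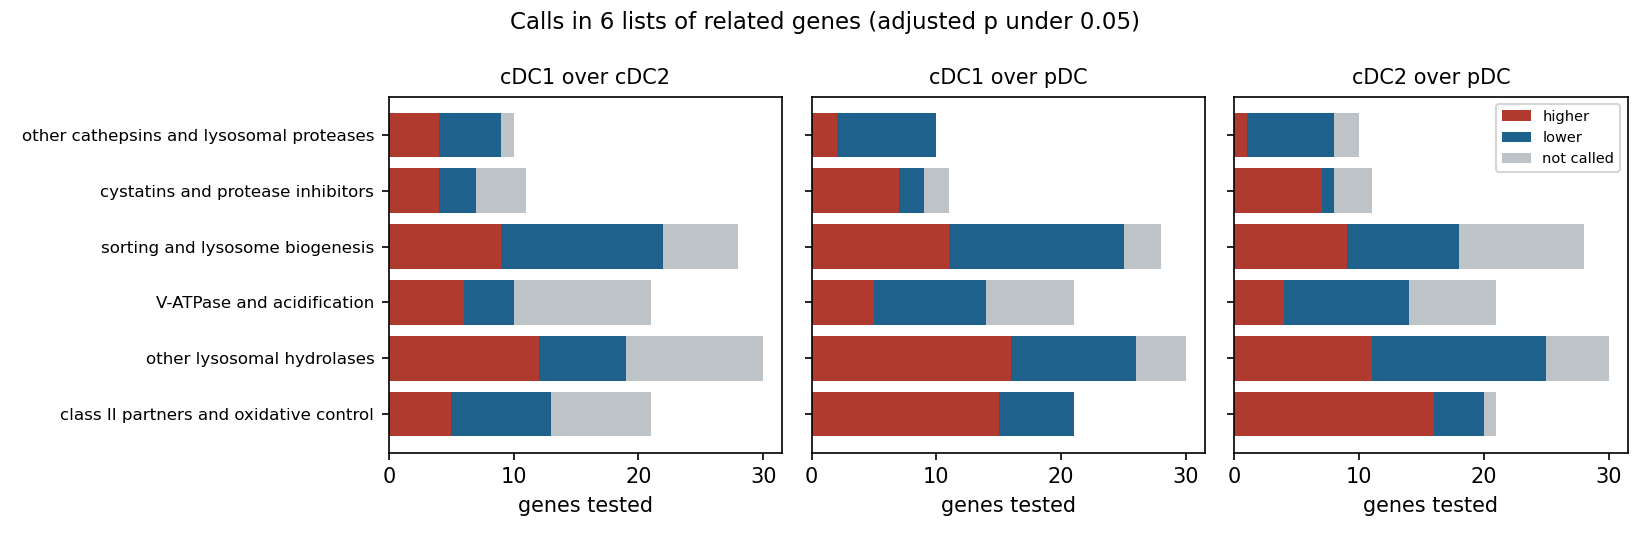
Number of tested genes in each of the 6 lists (horizontal axis) that were higher, lower or not called in the 3 comparisons. Class II partners are mostly higher in cDC1 and in cDC2 against pDC, with 15 and 16 of 21 called higher, and other cathepsins and lysosomal proteases are mostly lower, with 8 and 7 of 10 called lower.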

How the data were processed

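The authors deposited a raw table of counts per gene and a normalized table (unit signal: raw counts divided by 1 factor per column, as tested on the files) for each subset, 6 tables in all. Kallisto, DESeq2 and the GRCm38 build are listed in the submitters' processing notes, and their roles and versions are not given in the sources used here. Raw tables hold 16277 to 17017 genes with a row total of at least 10. The subset of a column is that of its table's name, which the labels give 6 samples. The column names match no sample and carry no genotype or replicate number, so genotype was not used.

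The 15219 genes listed in all 3 raw tables were fitted together with edgeR 4.0.16 in R 4.3.3 (TMM, filterByExpr by subset, quasi-likelihood F test, column totals of the own table as library sizes), with Benjamini-Hochberg adjustment over 13539 genes. The SE is the log2 fold change over the square root of F. The 6 ratio tests were exact permutations. Lengths came from GENCODE M21, and log2 CPM for correlations used a pseudocount of 0.5. Scripts were tested on simulated data. Alternatives were RLE factors, DESeq2 1.42.0, limma-voom (limma 3.58.1), 2 other filters, 2 other library scalings, 2 other lengths and leaving out each column. Of each of the 6 lists and each comparison at most the 2 called genes with the largest positive and the 2 with the largest negative log2 fold change were eligible to be named. Members, lists and motifs were chosen with earlier results of these data known. At 23530860 to 37105002 counts per column the depth gave every member at least 101 counts in every column.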

Additional observations from a re-analysis of the deposited data

Results flagged for a closer look

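The 30 sets of 6 columns, for 10 genes in 3 subsets, were checked for a column far from the others, and 2 stood out. Chance gives about 1 in 20. In cDC1, Lgmn had 40.0 CPM in column 3, and the nearest column had 50.5 CPM. In cDC2, Cst3 had 1931 CPM in column 2, against 1553 CPM in the nearest column. Without column 3 of cDC1, the log2 difference for Lgmn in cDC1 against pDC was 0.057 (adjusted p = 0.528, edgeR). Over all alternatives that adjusted p ran from 0.0434 to 0.992. Without column 2 of cDC2, the log2 difference for Cst3 in cDC2 against pDC was 0.18 (adjusted p = 0.263, edgeR). Over all alternatives its adjusted p ran from 0.0374 to 0.676.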

How the results depend on the processing

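The number of genes called stayed within 1.5 times of its value under every alternative, with ranges when each column was left out of 6512 to 6815 (cDC1 against cDC2), 8715 to 9099 (cDC1 against pDC) and 8442 to 8868 (cDC2 against pDC). No member that passed the test lost its call or its direction under any alternative run. For members that had not passed, Lgmn in cDC1 against pDC turned to 0.026 with the stricter filter and ranged from -0.067 to 0.057 when each column was left out, which for cDC1 columns 3 and 6 and pDC column 5 gave 0.057, 0.0013 and 0.034. Ctsz in cDC2 against pDC was -0.051 without TMM factors, a scaling added after seeing the data. It passed with DESeq2, limma-voom and the stricter filter (adjusted p = 0.0309, 0.041 and 0.0157) and in 6 of 18 fits that each left out a column (cDC1 3, 4 or 6, cDC2 5, pDC 4 or 5), and the cause was not tested. The Ctsl to Ctss ratio in cDC1 against cDC2 ranged from 0.25 to 0.40 when a column was left out and passed without cDC1 column 2 (0.40, adjusted p = 0.0455 by exact permutation, range over its alternatives 0.0455 to 0.184). Levels per kb moved with the transcript length, most for Ctsl (441 CPM per kb in pDC, 1380 with the shortest principal transcript, a length added after seeing the data). No paired analysis was possible because no column name holds a replicate number.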

Other observations

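In some genes the 6 columns of a subset fell into separate ranges. In cDC2, Ctss had 2226, 2151 and 2143 CPM in columns 1 to 3 and 2953, 2967 and 3044 CPM in columns 4 to 6. Ctsl had 12.1, 11.4 and 12.6 CPM in columns 1 to 3 of cDC1 and 19.8, 20.9 and 19.6 CPM in columns 4 to 6. In cDC2, Ctsl had 20.4, 18.3 and 19.3 CPM in columns 1 to 3 and 34.3, 32.3 and 29.7 CPM in columns 4 to 6. In pDC, Ctsz had 1141, 1170 and 1173 CPM in columns 1 to 3 and 1371, 1360 and 1329 CPM in columns 4 to 6. Columns 4 to 6 held the upper 3 values for Ctsb, Ctsc, Ctsd and Ctsl in cDC1, for Ctss, Ctsb, Ctsc, Ctsd, Ctsh and Ctsl in cDC2, and for Ctsd, Ctsh, Ctsz and Lgmn in pDC. For the other members this was not so. Ctsh in cDC1 had its upper 3 values in columns 1 to 3, and Ctsl in pDC in columns 1, 2 and 6. The step from the lower 3 to the upper 3 values was 80.6% of the range for Ctss in cDC2. For Ctsd in cDC1 it was only 2.82%, and for Ctsc in cDC2 5.74%. How many of all genes split in this way was not counted, so the pattern cannot be called particular to these members. The column names give no genotype, so the split into columns 1 to 3 and 4 to 6 follows column order alone. It was matched to no genotype, and no test was run on it.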
